A study of Mus musculus with 8 samples.

Results

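AP-1 is a dimeric transcription factor assembled from basic leucine zipper (bZIP) proteins of the Fos, Jun, ATF and BATF families. Its 10 genes Fos, Fosb, Fosl1, Fosl2, Jun, Junb, Jund, Atf3, Batf and Batf3 are described here among the 18193 genes tested, in mouse macrophages with and without the kinase Tpl2. They were chosen by name with earlier results of these data known, as were the other gene lists below. All 10 were found, through 14 probe sets annotated to exactly 1 of these symbols. Where a gene has several, the brightest on average stands for it here, and for the 4 genes with another probe set (Fosl1, Fosl2, Jun and Jund) that other probe set served as a check. Values are log2 RMA signals, on which 1 unit is a 2-fold difference, and a probe set's signal is compared only with itself across arrays, not with that of another gene.

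The arrays form 4 groups of 2: Tpl2-deficient macrophages treated with lipopolysaccharide (LPS), wild-type macrophages treated with LPS, Tpl2-deficient unstimulated macrophages and wild-type unstimulated macrophages. All cells were grown from bone marrow for 7 to 10 days with macrophage colony-stimulating factor at 10 ng/mL, and LPS came from Escherichia coli at 1 μg/mL. The labels assign no treatment time to these arrays and give no strain, sex or age of the mice. They give Tpl2 as deficient in the mice, with no cell-type-specific driver named. The arrays of a group are called biological replicates, with nothing on whether they came from separate animals, so a p-value covers no more than the spread between these arrays, which may be technical.

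Fos-family proteins pair only with partners such as Jun-family proteins, which can also pair with one another, and the dimers bind the AP-1 site, TGANTCA. LPS is sensed by toll-like receptor 4, and Tpl2 (gene Map3k8) is the kinase that then activates MEK and ERK. ERK signalling is known to drive Fos transcription through serum response factor and its Elk partners and to stabilise the Fos protein. Atf3 is known as a brake on cytokine genes after toll-like receptor signals, and Batf-family proteins lack a transactivation domain and pair with Jun proteins, often beside interferon regulatory factors. As immediate-early genes, several AP-1 members are known to peak soon after a stimulus and to decline later, so a level after LPS depends on the time, which is not given for these arrays.

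The probe set of Map3k8 read 9.96 ± 0.19 in LPS-treated Tpl2-deficient macrophages and 10.96 ± 0.07 in LPS-treated wild-type macrophages, a 2.00-fold difference (limma, adjusted p = 0.000125), and whether it lies within the deleted part is not known. Without stimulation it read 8.28 ± 0.06 in Tpl2-deficient and 9.27 ± 0.01 in wild-type macrophages (SD, n = 2 each, adjusted p = 0.00237). Of 9 macrophage markers measured, 0 were under the array median (6.48 to 6.53) in all 8 arrays. Their mean signal per array was 12.91 to 13.05 in LPS-treated Tpl2-deficient, 13.17 in LPS-treated wild-type, 12.88 to 12.93 in unstimulated Tpl2-deficient and 12.91 to 12.92 in unstimulated wild-type macrophages. Single markers moved in both directions. Under LPS 2 of the 9 were lower without Tpl2 (Msr1 at -1.19 and Itgam at -0.70), against 5.73% of all genes. The 1 that was higher was Mertk (1.00), against 8.01% of all genes. The 7 neutrophil markers, of which 4 were under the median in all arrays, averaged 6.67 to 6.81 in LPS-treated Tpl2-deficient, 6.91 to 6.97 in LPS-treated wild-type, 6.39 to 6.48 in unstimulated Tpl2-deficient and 6.34 to 6.39 in unstimulated wild-type macrophages. Of these 7, S100a8 alone was lower without Tpl2 under LPS (-1.14), against 5.73% of all genes, and 0 were higher, against 8.01%. The median difference of the 7 was -0.03. The 7 stromal markers averaged 6.88 to 7.08 in LPS-treated Tpl2-deficient, 6.78 to 6.82 in LPS-treated wild-type, 5.90 to 6.68 in unstimulated Tpl2-deficient and 6.19 to 6.22 in unstimulated wild-type macrophages. The 3′ minus 5′ signals, a measure of RNA quality, also moved with genotype under LPS. That of Actb was 0.61 and 0.68 in LPS-treated Tpl2-deficient macrophages, against 0.46 and 0.55 in LPS-treated wild-type macrophages. That of Gapdh was 0.05 and 0.10 in the Tpl2-deficient, against -0.09 and -0.07 in the wild-type arrays. Neither pair overlapped. In unstimulated macrophages the Actb value was 0.87 and 0.90 in Tpl2-deficient and 0.81 and 0.67 in wild-type arrays. The Gapdh value there was 0.07 and 0.06 in Tpl2-deficient and 0.09 and -0.03 in wild-type arrays. The Actb value thus moved with LPS too, and was lower with LPS in both genotypes, without overlap. The Gapdh value was lower with LPS without overlap in wild-type macrophages alone. The LPS comparisons of the AP-1 genes are between arrays that also differ in this way. The part of these marker and RNA quality values in the AP-1 differences was not tested. In such bulk RNA, fewer cells expressing a gene and less RNA per cell cannot be told apart. The LPS-treated Tpl2-deficient arrays were more spread than the others, with a median SD over genes of 0.129 against 0.0649 to 0.0662, and the fit shares 1 spread over all groups, so standard errors for that group may be too small.

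The 250 bases before the transcription start were looked up in RefSeq (GRCm38.p6) and found for 9 of the 10 genes, all but Fosl1. They were searched on both strands for the AP-1 site TGANTCA, the core of the cyclic-AMP response element TGACGT, the Jun-type site TGACATCA, the CArG box of serum response factor and the NF-kB site. Shown are Fos, Fosl2 and Jun, which were lower without Tpl2 under LPS, and Junb and Batf, which rose with LPS. Capitals mark the motif matches, 5′ to 3′ on the gene's strand.
Fos, chr12:85473640-85473889, + strand: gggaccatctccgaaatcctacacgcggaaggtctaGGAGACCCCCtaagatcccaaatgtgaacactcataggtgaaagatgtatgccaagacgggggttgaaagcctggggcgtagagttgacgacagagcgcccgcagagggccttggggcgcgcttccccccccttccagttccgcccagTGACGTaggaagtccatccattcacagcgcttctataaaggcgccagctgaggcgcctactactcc
Fosl2, chr5:32136222-32136471, + strand: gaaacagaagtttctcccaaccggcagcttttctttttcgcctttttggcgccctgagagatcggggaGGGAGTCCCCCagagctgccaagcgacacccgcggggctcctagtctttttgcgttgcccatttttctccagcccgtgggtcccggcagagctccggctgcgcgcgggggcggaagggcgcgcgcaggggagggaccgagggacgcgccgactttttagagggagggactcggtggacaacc
Jun, chr4:95052223-95052472, - strand: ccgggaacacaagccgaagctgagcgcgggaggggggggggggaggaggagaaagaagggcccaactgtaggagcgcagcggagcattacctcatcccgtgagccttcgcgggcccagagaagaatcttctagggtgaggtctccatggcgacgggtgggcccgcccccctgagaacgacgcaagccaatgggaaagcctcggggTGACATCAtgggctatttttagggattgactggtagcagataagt
Junb, chr8:84978749-84978998, - strand: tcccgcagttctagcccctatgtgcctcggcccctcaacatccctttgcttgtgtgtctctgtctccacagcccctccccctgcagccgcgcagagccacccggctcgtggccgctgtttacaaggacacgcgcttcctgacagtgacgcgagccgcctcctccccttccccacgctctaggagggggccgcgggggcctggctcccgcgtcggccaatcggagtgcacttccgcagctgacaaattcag
Batf, chr12:85686470-85686719, + strand: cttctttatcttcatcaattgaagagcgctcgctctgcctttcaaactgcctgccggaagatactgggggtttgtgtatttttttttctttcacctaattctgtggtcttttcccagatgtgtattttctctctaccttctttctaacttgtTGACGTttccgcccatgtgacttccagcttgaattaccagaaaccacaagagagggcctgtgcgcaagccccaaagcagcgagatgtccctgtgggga
The capitals are, in Fos, an NF-kB match at -214 to -205 and the TGACGT core at -66 to -61 from the start. In Fosl2 they are a pair of overlapping NF-kB matches at -182 to -172, in Jun the Jun-type site at -45 to -38 and in Batf the TGACGT core at -98 to -93. Junb had no match. Over the 9 members, TGACGT was in 3 windows (Fos, Atf3 and Batf) and in 6.47% of all 32851 promoter windows, an NF-kB match was in 3 (Fos, Fosb and Fosl2) and in 3.90% of all, and TGACATCA was in 1 and in 2.93% of all. TGANTCA (6.75% of all windows) and the CArG box (1.47%) were in 0 of the 9. No match of 1 motif overlapped that of another in these members. A match is a description, and the absence of one says only that the letters are not in this window. In the order of protein-coding genes, Fos, Jdp2 and Batf are consecutive on chromosome 12, and Batf3 and Atf3 are separated by 1 such gene, Fam71a, on chromosome 1.

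With LPS, Fos and Jun fell and Junb, Atf3 and Batf rose in both genotypes. By the probe sets used, Fosl2 passed the test in Tpl2-deficient macrophages alone and Batf3 in wild-type macrophages alone. The other Fosl2 probe set passed in wild-type macrophages alone, as a rise (0.46, limma, adjusted p = 0.00673). It did not pass in Tpl2-deficient macrophages (-0.02, adjusted p = 0.935). A gene passed at an adjusted p under 0.05 over all genes. In Tpl2-deficient macrophages Junb, Atf3 and Batf rose and Fos, Fosl2 and Jun fell, which is 3 of 10 higher, against 16.0% of all genes, and 3 lower, against 25.8%. In wild-type macrophages Junb, Atf3 and Batf rose and Fos, Jun and Batf3 fell, which is 3 of 10 higher, against 21.3% of all genes, and 3 lower, against 30.9%. The numbers that fell, and the 3 that rose in wild type, are near the shares over all genes. With arrays centred on the spike-ins, 2 rose in each genotype. With the other probe set of the 4 genes that have 2, 3 rose and 2 fell in Tpl2-deficient macrophages, and 4 rose and 3 fell in wild-type macrophages. The 10 members had a median difference of -0.03 in cells lacking Tpl2, beside 0.00 over all genes, and of -0.12 in wild-type cells, beside 0.04 over all genes. The plot of LPS responses by genotype shows Fos and Fosl2 far apart between genotypes and Batf, Junb, Jun and Atf3 on the same side of 0 in both.

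**Figure D1:**
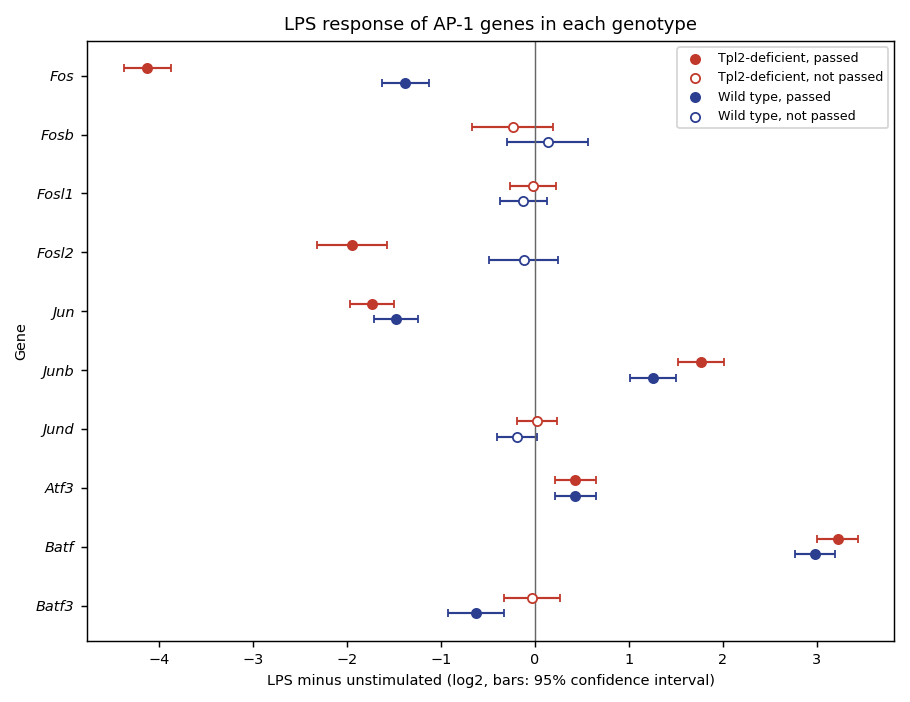
LPS minus unstimulated signal (log2, x axis) of each AP-1 gene, in Tpl2-deficient (red) and wild-type (blue) macrophages, with 95% confidence intervals from limma over 8 arrays. Filled points passed an adjusted p of 0.05: Fos fell by 4.12 in Tpl2-deficient and by 1.38 in wild-type macrophages, while Batf rose by 3.22 in Tpl2-deficient and by 2.98 in wild-type macrophages.

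Between genotypes, 3 of the 10 members were lower in LPS-treated Tpl2-deficient than in LPS-treated wild-type macrophages, Fos, Fosl2 and Jun, against 5.73% of all genes. With the other probe set of the 4 genes that have 2, the Fosl2 and Jun calls are lost and 1 member, Fos, passes. Of the members 0 were higher there, against 8.01% of all genes. In unstimulated macrophages limma passed 0 of 10 members, higher or lower, against 0.154% of all genes higher and 0.346% lower. At an unadjusted p under 0.05, 4 of the 10 (Jun, Junb, Atf3 and Batf3) and 2445 of all genes differed, and these 4 members were lower in the Tpl2-deficient cells. The difference of the LPS responses, which is the response of Tpl2-deficient minus that of wild-type macrophages, passed for 2 members, Fos and Fosl2. Both were lower, against 2.87% of all genes, and 0 were higher, against 5.72%, and with the other probe set Fos alone passes. Members' median differences were -0.14 with LPS and -0.12 without, beside 0.02 and close to 0 over all genes.

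**Figure D2:**
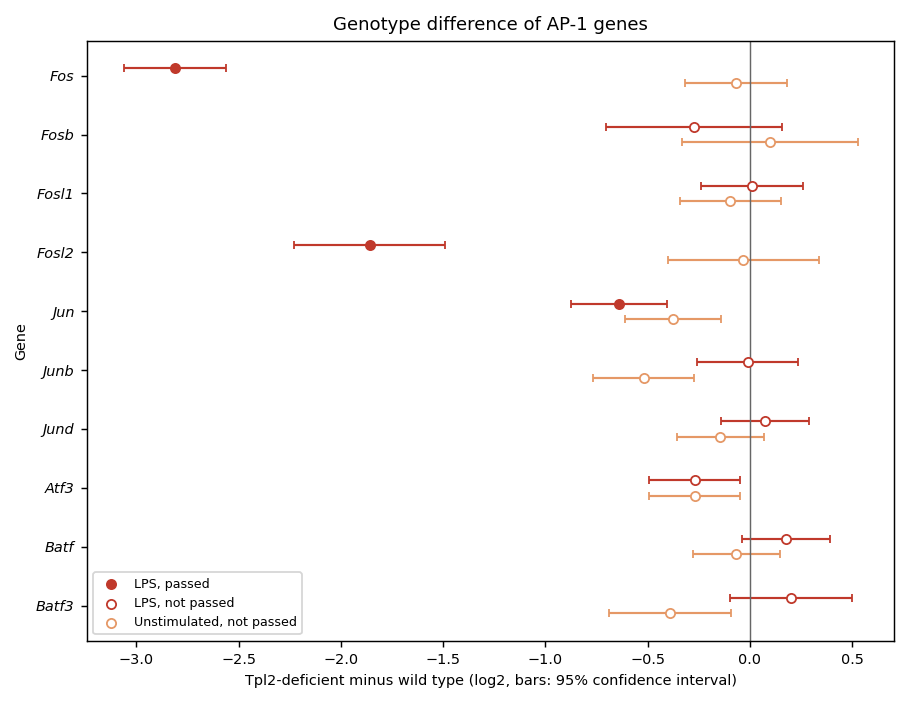
Tpl2-deficient minus wild-type signal (log2, x axis) of each AP-1 gene under LPS (red) and without stimulation (orange), with 95% confidence intervals from limma over 8 arrays. Filled points passed an adjusted p of 0.05: Fos (-2.81), Fosl2 (-1.86) and Jun (-0.64), all under LPS.

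Fos, the founding member of its family and a textbook ERK target, showed the largest genotype difference of the 10 genes under LPS. Its signal was 8.94 and 8.82 in LPS-treated Tpl2-deficient macrophages, against 11.61 and 11.78 in LPS-treated wild-type macrophages. It was 13.12 and 12.90 in unstimulated Tpl2-deficient macrophages, against 13.06 and 13.09 in unstimulated wild-type macrophages. The LPS-treated arrays of each genotype lay under all unstimulated arrays, and those without Tpl2 were the lowest, whereas the unstimulated genotypes overlapped. Under LPS Fos was 7.02-fold lower without Tpl2 (-2.81 ± 0.11, limma, adjusted p = 8.21e-08), where ± after a difference is its standard error. The LPS response was a 17.4-fold fall in Tpl2-deficient macrophages (-4.12 ± 0.11, adjusted p = 2.67e-10) and a 2.60-fold fall in wild-type macrophages (-1.38 ± 0.11, adjusted p = 1.26e-06), and these responses differed by -2.74 (95% interval -3.10 to -2.39, adjusted p = 4.97e-06). Without stimulation the genotype difference was -0.07 (adjusted p = 0.839). Fos has a single probe set, so no other one checks these values.

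**Figure D3:**
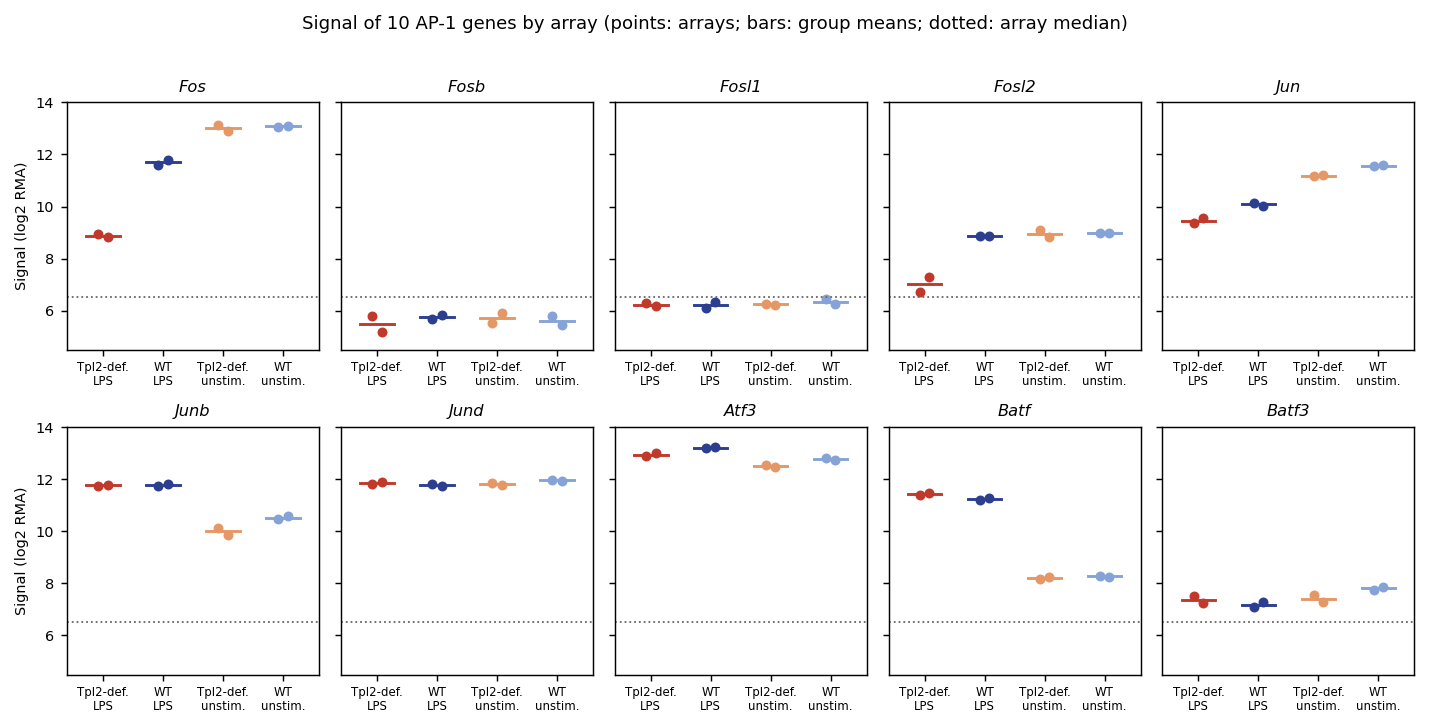
Signal (log2 RMA, y axis) of the 10 AP-1 genes in each array, as points, with group means as bars and the array median dotted; groups run from LPS-treated Tpl2-deficient to unstimulated wild-type macrophages. Fos and Fosl2 are lowest in LPS-treated Tpl2-deficient macrophages (means 8.88 and 7.01), Batf is high in both LPS-treated groups (11.43 and 11.25), and Fosb and Fosl1 lie under the array median throughout.

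Fosl2, which encodes Fra-2, had a signal of 6.71 and 7.30 in LPS-treated Tpl2-deficient macrophages, against 8.88 and 8.85 in LPS-treated wild-type macrophages. The unstimulated values were 9.09 and 8.81 in Tpl2-deficient macrophages, against 8.97 and 8.99 in wild-type macrophages. By this probe set the LPS-treated Tpl2-deficient pair alone stood apart, and its arrays differed more from each other (SD 0.42) than those of the other 3 groups (SD 0.01 to 0.20). Fosl2 was 3.63-fold lower without Tpl2 under LPS (-1.86 ± 0.17, limma, adjusted p = 2.32e-05). It fell 3.85-fold with LPS in Tpl2-deficient macrophages (-1.94 ± 0.17, adjusted p = 2.23e-06), the wild-type difference was -0.12 ± 0.17 (adjusted p = 0.578), and the responses differed by -1.83 ± 0.24 (adjusted p = 0.00082). With 1 of the LPS-treated Tpl2-deficient arrays left out, the Fosl2 difference under LPS was -1.57 (without replicate 1) or -2.15 (without replicate 2), and it passed both times. A further fit used array weights, which came out equal within each group (0.379 for both LPS-treated Tpl2-deficient arrays). They thus allowed a spread per group, not per array. With them the adjusted p under LPS was 7.54e-05 for Fosl2, 1.17e-06 for Fos and 0.00849 for Jun (limma).

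The other probe set of Fosl2 did not show the genotype difference. It read 7.87 and 7.61 in LPS-treated Tpl2-deficient macrophages, against 7.99 and 7.89 in LPS-treated wild-type macrophages, and 7.73 and 7.79 in unstimulated Tpl2-deficient macrophages, against 7.49 and 7.48 in unstimulated wild-type macrophages. Tested alone it gave -0.20 ± 0.12 between genotypes under LPS (limma, adjusted p = 0.356) and -0.47 for the difference of responses (adjusted p = 0.126). In wild-type macrophages it gave a rise of 0.46 ± 0.12 with LPS (adjusted p = 0.00673), where the probe set used gave -0.12. In Tpl2-deficient macrophages it gave -0.02 ± 0.12 with LPS (adjusted p = 0.935), where the probe set used gave -1.94. The mean of both probe sets gave -1.03 between genotypes under LPS (adjusted p = 3.65e-05) and -1.15 for the difference of responses (adjusted p = 0.000484). That mean includes the probe set that passed, so it is no separate check. The Fosl2 values thus differ between its probe sets, and the cause was not tested.

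**Figure D4:**
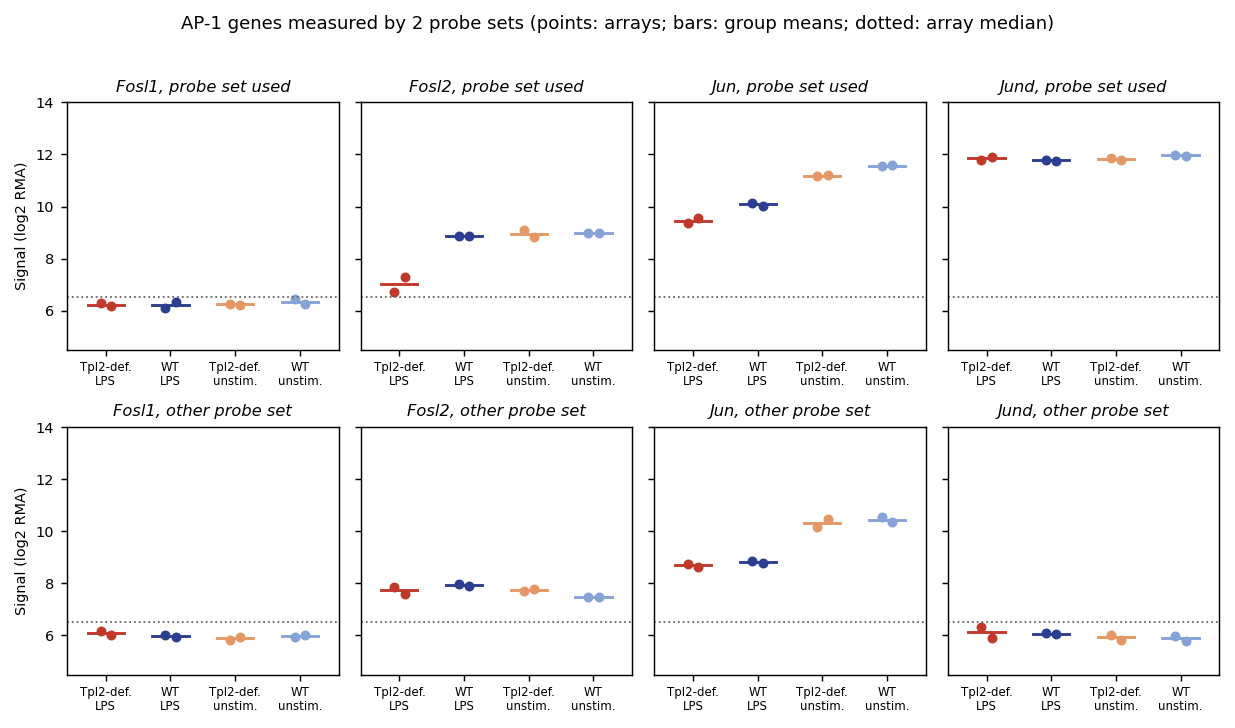
Signal (log2 RMA, y axis) in each array of the 4 AP-1 genes with 2 probe sets, with the probe set used in the upper row and the other one in the lower row; points are arrays, bars group means and the dotted line the array median. For Fosl2 the drop in LPS-treated Tpl2-deficient macrophages (mean 7.01) appears in the upper row only, and for Jun both rows are lower in the LPS-treated groups.

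Fosb and Fosl1, the other Fos-family genes, were under the array median in all 8 arrays. Fosb ranged from 5.18 to 5.92, and Fosl1 from 6.12 to 6.43 by the probe set used and from 5.83 to 6.18 by the other. By the probe sets used the groups overlapped. By the other Fosl1 probe set the LPS-treated Tpl2-deficient arrays (6.18 and 6.03) lay above the unstimulated Tpl2-deficient ones (5.83 and 5.95) and above the LPS-treated wild-type ones (6.02 and 5.95). At such levels the probe sets may not be able to show a difference. By the probe sets used no comparison passed for either gene, with adjusted p of 0.38 to 0.869 for Fosb and 0.381 to 0.977 for Fosl1 (limma).

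Jun, the principal partner of Fos, had a signal of 9.35 and 9.55 in LPS-treated Tpl2-deficient macrophages, against 10.15 and 10.04 in LPS-treated wild-type macrophages. In unstimulated macrophages it was 11.16 and 11.21 without Tpl2, against 11.55 and 11.58 in wild type. None of the 4 groups overlapped, and their order from low to high was LPS-treated Tpl2-deficient, LPS-treated wild-type, unstimulated Tpl2-deficient and unstimulated wild-type. Jun fell 3.33-fold with LPS in Tpl2-deficient macrophages (-1.74 ± 0.11, limma, adjusted p = 1.27e-07) and 2.78-fold in wild-type macrophages (-1.47 ± 0.11, adjusted p = 4.45e-07). It was 1.56-fold lower without Tpl2 under LPS (-0.64 ± 0.11, adjusted p = 0.00195), while the unstimulated difference of -0.38 ± 0.11 did not pass (adjusted p = 0.18). The difference of the responses was -0.26 ± 0.15 and did not pass (adjusted p = 0.336).

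The other probe set of Jun also fell with LPS. It read 8.76 and 8.62 in LPS-treated Tpl2-deficient macrophages, against 8.87 and 8.80 in LPS-treated wild-type macrophages, and 10.18 and 10.46 in unstimulated Tpl2-deficient macrophages, against 10.53 and 10.37 in unstimulated wild-type macrophages. Tested alone it fell by 1.63 in Tpl2-deficient (limma, adjusted p = 6.76e-07) and by 1.62 in wild-type macrophages (adjusted p = 6.52e-07). Its genotype difference under LPS was -0.15 ± 0.13 and did not pass (adjusted p = 0.58). That of the mean of both probe sets was -0.39 (adjusted p = 0.0164), but this mean includes the probe set that passed and is no separate check. The fall of Jun with LPS was therefore seen by both probe sets and its genotype difference by 1 of 2.

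Junb, a Jun-family protein that is a weaker activator than Jun in several settings, moved the other way. Its signal was 11.75 and 11.77 in LPS-treated Tpl2-deficient macrophages, against 11.74 and 11.80 in LPS-treated wild-type macrophages. In unstimulated macrophages it was 10.12 and 9.86 without Tpl2, against 10.46 and 10.57 in wild type. The genotypes overlapped under LPS and did not overlap without it, with the Tpl2-deficient arrays lower. Junb rose 3.40-fold with LPS in Tpl2-deficient (1.77 ± 0.11, limma, adjusted p = 1.65e-07) and 2.39-fold in wild-type macrophages (1.26 ± 0.11, adjusted p = 2.38e-06). The unstimulated genotype difference was -0.52 ± 0.11 (adjusted p = 0.0864), that under LPS -0.01 (95% interval -0.26 to 0.24, adjusted p = 0.974) and that of the responses 0.51 ± 0.16 (adjusted p = 0.0747). The unstimulated call depends on the setting: its adjusted p was 0.0498 over genes above the median level, 0.0334 with a mean-variance trend and 0.0234 with array weights. Likewise the difference of responses had an adjusted p of 0.0357 over genes above the median and 0.037 with the trend.

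Jund, the Jun-family member that many cells express constitutively, ranged from 11.74 to 11.98 over the 8 arrays by the probe set used. It averaged 11.84 in LPS-treated Tpl2-deficient, 11.77 in LPS-treated wild-type, 11.82 in unstimulated Tpl2-deficient and 11.96 in unstimulated wild-type macrophages. No comparison passed (limma, adjusted p 0.12 to 0.873), the LPS difference in wild-type macrophages was -0.19 and the difference of responses 0.22. The wild-type LPS difference passed when quantile normalization was repeated (-0.27, adjusted p = 0.0341) and when arrays were centred on the spike-ins (-0.33, adjusted p = 0.0498). The other probe set of Jund was under the array median in all arrays, at 5.78 to 6.33.

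Atf3, the stress-induced ATF member, had a signal of 12.88 and 13.01 in LPS-treated Tpl2-deficient macrophages, against 13.20 and 13.23 in LPS-treated wild-type macrophages. It was 12.56 and 12.46 in unstimulated Tpl2-deficient macrophages, against 12.81 and 12.76 in unstimulated wild-type macrophages. In each genotype both LPS-treated arrays were higher than both unstimulated ones, and in each condition the Tpl2-deficient arrays were lower. The rise with LPS was 1.35-fold in Tpl2-deficient (0.43 ± 0.10, limma, adjusted p = 0.0044) and 1.35-fold in wild-type macrophages (0.43 ± 0.10, adjusted p = 0.00371). These calls were lost with arrays centred on the spike-ins, at 0.23 in Tpl2-deficient (adjusted p = 0.196) and 0.30 in wild-type macrophages (adjusted p = 0.0895). The genotype difference was -0.27 with LPS (adjusted p = 0.113) and -0.27 without (adjusted p = 0.288). Under LPS it passed over genes above the median (adjusted p = 0.0476), with a mean-variance trend (0.0264) and without the LPS-treated Tpl2-deficient replicate 2 (-0.34, adjusted p = 0.0447).

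Batf, which pairs with Jun proteins, had the largest rise of the 10 genes. Its signal was 11.38 and 11.47 in LPS-treated Tpl2-deficient macrophages, against 11.21 and 11.29 in LPS-treated wild-type macrophages, and 8.19 and 8.23 in unstimulated Tpl2-deficient macrophages, against 8.29 and 8.26 in unstimulated wild-type macrophages. The treated arrays were far above the unstimulated ones in each genotype, and the genotypes were close to each other in each condition. The rise was 9.34-fold in Tpl2-deficient (3.22 ± 0.10, limma, adjusted p = 5.06e-10) and 7.89-fold in wild-type macrophages (2.98 ± 0.10, adjusted p = 9.41e-10). The genotype difference under LPS was 0.18 (95% interval -0.04 to 0.39, adjusted p = 0.315), and the difference of responses 0.24 (adjusted p = 0.328).

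Batf3, known for its part in the development of cross-presenting dendritic cells, was above the array median in all 8 arrays. It read 7.53 and 7.23 in LPS-treated Tpl2-deficient macrophages, against 7.09 and 7.27 in LPS-treated wild-type macrophages. The unstimulated values were 7.54 and 7.28 in Tpl2-deficient macrophages, against 7.74 and 7.87 in wild-type macrophages. The unstimulated wild-type pair was above the other 6 arrays. With LPS, Batf3 was 1.54-fold lower in wild-type macrophages (-0.63 ± 0.14, limma, adjusted p = 0.00237), the difference was -0.03 in Tpl2-deficient macrophages (adjusted p = 0.879), and the difference of responses was 0.59 ± 0.19, which did not pass (adjusted p = 0.0861). That difference of responses passed over genes above the median (adjusted p = 0.0487) and without the LPS-treated Tpl2-deficient replicate 2 (0.74, adjusted p = 0.0343). The genotype differences were 0.20 with LPS (adjusted p = 0.435) and -0.39 ± 0.14 without (adjusted p = 0.255).

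Other bZIP proteins, some of which can dimerise with AP-1 members, were measured for 17 of 19 listed genes. The list was drawn up with earlier results of these data known. With LPS, 7 rose (against 16.0% of all genes) and 5 fell (against 25.8% of all genes) in Tpl2-deficient macrophages, and 9 rose (against 21.3% of all genes) and 5 fell (against 30.9% of all genes) in wild-type macrophages. The numbers that fell are near the shares over all genes. Batf2, which like Batf pairs with Jun, rose by 4.78 in Tpl2-deficient and by 4.42 in wild-type macrophages on the log2 scale, and Jdp2, a repressor that binds AP-1 sites, rose by 2.10 in Tpl2-deficient and by 2.92 in wild-type macrophages (limma, each adjusted p under 0.05). Between genotypes under LPS, 3 were higher (against 8.01% of all genes) and 7 lower (against 5.73% of all genes) without Tpl2, with a list median of -0.25 beside 0.02 over all genes. Maf, a large Maf factor of macrophages, was lowest relative to wild type, at 11.19 ± 0.11 in LPS-treated Tpl2-deficient and 13.14 in LPS-treated wild-type macrophages (-1.95 ± 0.10, adjusted p = 5.9e-07). Jdp2, the protein-coding gene between Fos and Batf on chromosome 12, averaged 10.51 ± 0.10 in LPS-treated Tpl2-deficient and 11.46 ± 0.14 in LPS-treated wild-type macrophages (-0.96 ± 0.11, limma, adjusted p = 0.000125). Its LPS responses differed by -0.82 ± 0.15 (adjusted p = 0.00753). The 3 consecutive genes thus gave 3 patterns, a fall of Fos that was larger without Tpl2, a rise of Jdp2 that was smaller without Tpl2, and a rise of Batf whose genotype difference did not pass. In unstimulated macrophages 0 of the 17 passed (limma), against 0.154% of all genes higher and 0.346% lower. At an unadjusted p under 0.05, 2 of the 17 and 2445 of all 18193 genes differed, which are near shares. The difference of responses passed for 2 higher (against 5.72% of all genes) and 5 lower (against 2.87% of all genes), with Maf (-2.14), Jdp2 (-0.82), Atf5 (0.80) and Nfe2l2 (-0.78) leading.

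Kinases and factors that act before AP-1 were measured for 15 of 19 listed genes. This list too was drawn up with earlier results of these data known. With LPS, 6 rose (against 16.0% of all genes) and 5 fell (against 25.8% of all genes) in Tpl2-deficient macrophages, and 4 rose (against 21.3% of all genes) and 7 fell (against 30.9% of all genes) in wild-type macrophages. The 5 that fell without Tpl2 and the 4 that rose in wild type are near the shares over all genes, as is the single gene that was higher without Tpl2 under LPS (against 8.01% of all genes). Mef2d, a MADS-box activator of Jun, fell by 3.21 in Tpl2-deficient and by 2.87 in wild-type macrophages, and Mef2c fell by 1.16 in Tpl2-deficient and by 1.41 in wild-type macrophages (limma, each adjusted p under 0.05). Mapk14, the p38α kinase, was the most different between genotypes under LPS, at 9.64 in Tpl2-deficient and 10.95 in wild-type macrophages (-1.31 ± 0.12, adjusted p = 1.89e-05), and its responses differed by -1.37 (adjusted p = 0.000435). Under LPS 1 gene was higher without Tpl2, Mapk8, which encodes the kinase JNK1 (0.41 ± 0.10, limma, adjusted p = 0.0143). The 2 that were lower, against 5.73% of all genes, were Mapk14 and Map3k8. Without stimulation 1 of 15 passed, Map3k8 itself, which was lower, against 0.346% of all genes. Map3k8 encodes Tpl2, so its calls say nothing about the rest of the list. Apart from Map3k8, Mapk14 alone was lower without Tpl2 under LPS, which is near the share over all genes.

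Genes reported as AP-1 targets were measured for 20 of 22 listed. With LPS, 10 rose (against 16.0% of all genes) and 7 fell (against 25.8% of all genes) in Tpl2-deficient macrophages, and 15 rose (against 21.3% of all genes) and 2 fell (against 30.9% of all genes) in wild-type macrophages. Under LPS 1 was higher (against 8.01% of all genes) and 12 were lower (against 5.73% of all genes) without Tpl2, with a list median of -0.59 beside 0.02 over all genes, and the list was drawn up with earlier results of these data known. Plaur, the urokinase receptor, averaged 8.68 ± 0.16 in LPS-treated Tpl2-deficient and 11.83 ± 0.05 in LPS-treated wild-type macrophages (-3.14 ± 0.11, limma, adjusted p = 4.43e-08). Hmox1, the inducible haem oxygenase, averaged 8.14 in LPS-treated Tpl2-deficient and 11.26 in LPS-treated wild-type macrophages (-3.12 ± 0.17, adjusted p = 5.72e-07). The cytokine gene Il1b averaged 11.71 in LPS-treated Tpl2-deficient and 14.47 in LPS-treated wild-type macrophages (-2.76 ± 0.11, adjusted p = 8.69e-08). For the chemokine gene Ccl2 the difference was -2.35 ± 0.15 (adjusted p = 2.32e-06). The gene that was higher without Tpl2 was Il12b, which encodes a subunit of a T-cell-polarising cytokine (1.36 ± 0.18, adjusted p = 0.000358). Tnf, Il6 and Cd44 did not pass between genotypes, at 0.08, 0.31 and -0.19, though each rose with LPS in both genotypes. The 20 targets thus held passing genes on both sides of 0 and genes that did not pass.

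**Figure D5:**
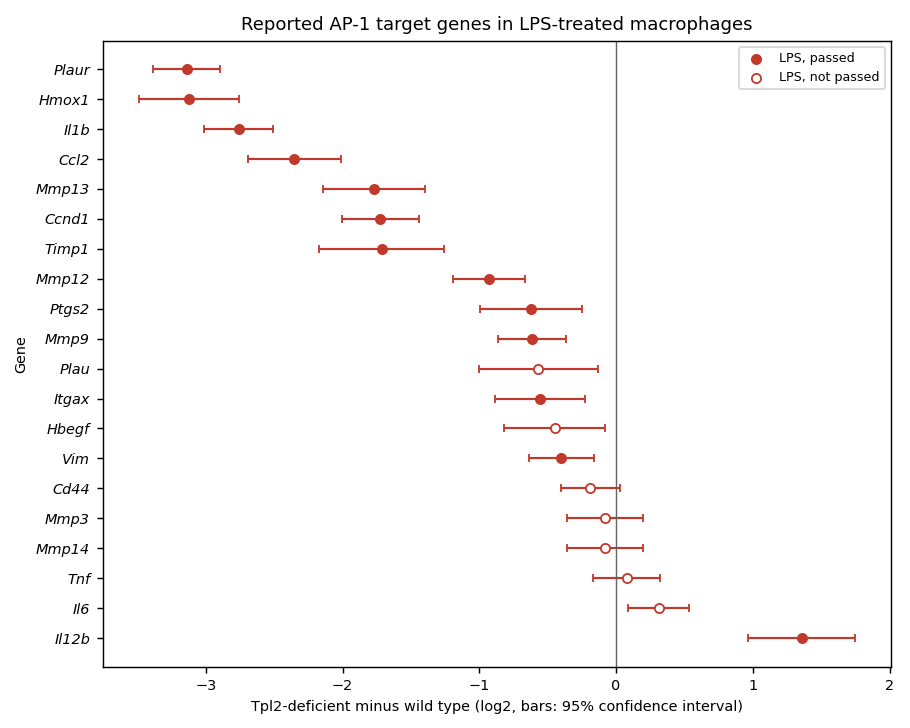
Tpl2-deficient minus wild-type signal under LPS (log2, x axis) of the 20 measured genes reported as AP-1 targets, ordered by difference, with 95% confidence intervals from limma over 8 arrays. Filled points passed an adjusted p of 0.05: 12 genes from Plaur (-3.14) to Vim lie left of 0 and Il12b (1.36) lies right of it.

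In unstimulated macrophages 0 of the 20 targets passed between genotypes (limma), against 0.154% of all genes higher and 0.346% lower. At an unadjusted p under 0.05, 7 of the 20 targets and 2445 of all 18193 genes differed. The difference of LPS responses passed for 1 higher (against 5.72% of all genes) and 7 lower (against 2.87% of all genes) targets, led by Hmox1 (-3.01), Il1b (-2.66), Plaur (-2.55) and Ccl2 (-2.24). With LPS, Hmox1 fell by 1.99 in Tpl2-deficient macrophages and rose by 1.02 in wild-type macrophages, and Plaur fell by 0.81 in Tpl2-deficient macrophages and rose by 1.75 in wild-type macrophages, each with an adjusted p under 0.05 (limma).

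The genes whose pattern was most like that of Fos or Fosl2 were sought over the 8 arrays by Pearson correlation among 3242 genes. These lay above the median gene, and their group means span at least 1 log2 unit. The members, predicted genes and cDNA clones were left out. For Fos they were Nabp1 (r = 0.997), Lpxn (r = 0.996) and Was (r = 0.996), and for Fosl2 Fam214b (r = 0.996), Xpot (r = 0.995) and Sh2b2 (r = 0.990). Lpxn, for example, averaged 11.08 in LPS-treated Tpl2-deficient, 12.20 in LPS-treated wild-type, 12.87 in unstimulated Tpl2-deficient and 12.82 in unstimulated wild-type macrophages. Fam214b averaged 7.85 in LPS-treated Tpl2-deficient macrophages and 9.03 to 9.12 in the other 3 groups. The correlations rest on 4 group means measured on shared arrays and are given as a description.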

How the data were processed

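Gene expression of 8 macrophage samples was measured on Affymetrix mouse arrays, 2 per group. The deposited values are log2 signals, and GCOS and RMA are named, without versions, per the submitters' processing notes. No further normalization or low-value filter was applied. Of 45101 probe sets, 34958 list exactly 1 gene symbol and 34945 of these were used, which gave 18193 genes, with the brightest probe set on average kept where a gene had several.

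The two-sided moderated test of limma 3.58.1 (eBayes after lmFit, R 4.3.3) was fitted to the 8 arrays together, with a mean per group, no batch or replicate term, 4 residual and 6.87 prior degrees of freedom, and 5 comparisons. The threshold was 0.05 after Benjamini-Hochberg adjustment over the 18193 genes, and "rose", "fell", "higher" and "lower" refer to it. The fit was tested on simulated data. Arrays have no read depth, and their number limits the precision.

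The members and lists were chosen with earlier results of these data known. All 10 members are named in each comparison, with up to 4 passing genes of each other list by size of change and the 3 genes most like a member whose difference of LPS responses passed; Il12b, Mapk8, Mef2c, Tnf, Il6 and Cd44 were, for some comparisons, named after their values were seen. Alternatives were the mean of a gene's probe sets, each probe set alone, no _x_at or _s_at probe sets, repeated quantile normalization, centring on medians or spike-ins, only genes above the median, array weights, a robust prior, a variance trend, a replicate block, only the arrays compared and each array left out in turn. A crossed block and the lower probe set of the 4 members were added after seeing the data.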

Additional observations from a re-analysis of the deposited data

Results flagged for a closer look

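For Fos the LPS response in Tpl2-deficient macrophages minus that in wild-type macrophages was -2.74 on the log2 scale, and the test of this difference itself passed (limma, adjusted p = 4.97e-06, 4 groups of 2 arrays). Fosl2 was marked in the same way, at -1.83 (adjusted p = 0.00082), by 1 of its 2 probe sets, the other giving -0.47 (adjusted p = 0.126). Groups of 2 arrays are too small to look for an array that stands apart.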

How the results depend on the processing

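Of 660 gene comparisons under other settings, 609 kept their direction and side of the threshold, 10 lost and 11 gained a call, and 30 changed sign. Of those 30, 28 passed under neither setting and 2 are the wild-type LPS difference of Fosl2, 0.46 by its other probe set. With 1 array left out, 218 of 240 kept both, 2 gained a call and 20, all without a call, changed sign. In unstimulated macrophages the genotype comparison passed 1 member over genes above the median, 1 with a variance trend and 2 with array weights (main 0). The difference of responses passed 4 members over genes above the median (main 2). With the other probe set of Fosl1, Fosl2, Jun and Jund, 1 member passed between genotypes under LPS (main 3) and 1 for the difference of responses. Over all genes, the unstimulated genotype count was 140 with a trend, 531 with array weights and 48 with only the arrays compared (main 91), the LPS-treated one 1580 with array weights (main 2500), and the difference of responses 1022 with spike-in centring (main 1563). Leaving out 1 array gave 23 to 40, 1356 to 3240 and 756 to 2565 for these 3 counts. With both arrays of each compared group kept, members passing ranged from 1 to 4 under LPS and from 1 to 4 for the responses.

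Centring on the spike-ins moved the median of all genes to -0.20 for LPS in Tpl2-deficient and -0.09 in wild-type macrophages (main 0.00 and 0.04). The share of calls that were lower then was 78.0% and 74.9% (main 61.8% and 59.2%), and it was 43.2% between unstimulated genotypes (55.7% with quantile normalization, main 69.2%) and 47.7% for the difference of responses (43.7% with quantile normalization, main 33.5%).

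Same-numbered arrays correlated at -0.12 to 0.10 in their deviations, so no effect shared by same-numbered arrays was seen in these values. Whether the samples were paired cannot be told from this. With the replicate block 6, 6, 0, 3 and 2 members passed in the 5 comparisons, as without it. A crossed block, added after seeing the data, passed 6 for LPS in Tpl2-deficient macrophages. Signal under the array median limits what Fosb and Fosl1 can show.

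The sign changes without a call, in log2 units, were these. For LPS in Tpl2-deficient macrophages Fosl1 was 0.21 by its other probe set, 0.096 by the probe set mean and 0.0075 with median centring, Jund -0.077 with quantile normalization and -0.18 with spike-in centring, and Batf3 0.094 with quantile normalization. For LPS in wild-type macrophages Fosl2 was 0.17 by the probe set mean and 0.13 with quantile normalization, Fosl1 0.0057 and Jund 0.19 by their other probe sets, and Fosb -0.0012 with spike-in centring. Between unstimulated genotypes Fosl2 was 0.27 by its other probe set, 0.12 by the mean, 0.055 with quantile normalization and 0.067 with spike-in centring, Jund 0.038 by its other probe set, Batf 0.0047 with quantile normalization and 0.033 with spike-in centring, Fos 0.033 and Fosl1 0.0041 with spike-in centring. Under LPS Junb was 0.021 with spike-in centring, and the difference of responses of Atf3 was 0.033 with quantile normalization and 0.037 with median centring.

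Leaving out 1 array gave, for LPS in Tpl2-deficient macrophages, -0.53 to 0.062 for Fosb, -0.074 to 0.036 for Fosl1, -0.019 to 0.068 for Jund and -0.18 to 0.12 for Batf3, and -0.024 to 0.30 for Fosb with LPS in wild-type macrophages. Between unstimulated genotypes it gave -0.18 to 0.042 for Fos, -0.10 to 0.30 for Fosb and -0.17 to 0.11 for Fosl2. Between genotypes under LPS it gave -0.57 to 0.023 for Fosb, -0.091 to 0.11 for Fosl1 and -0.037 to 0.016 for Junb, and for the difference of responses of Atf3 -0.066 to 0.066.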
